A study of Mus musculus with 101 samples.

Results

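Transcripts of 10 genes known for their expression in macrophages were followed in germ cells sorted from fetal mouse gonads. The 10 genes were the complement subunits C1qa, C1qb and C1qc, the signalling adaptors Tyrobp and Fcer1g, the receptors Csf1r and Cx3cr1, the calcium-binding protein gene Aif1, and the chemokines Ccl3 and Ccl4. They were chosen by name, with their levels and shared movement in these same embryos already known, so both are given as a description, without a test. All 10 of 10 were in the table, which held 15423 genes.

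Primordial germ cells (PGCs) came from 48 female and 53 male E13.5 embryos of 56 dams. All embryos were OG2 mice, a C57BL/6J line with a transgene that drives EGFP from the Pou5f1 promoter. Their F0 ancestors had been fed sesame oil alone (vehicle) or oil with benzo[a]pyrene (BaP), a combustion product, during pregnancy, at daily doses of 0.033, of 0.2 and of 2 mg/kg-day. The F1 embryos were exposed in utero. F2 and F3 embryos descended from other F0 dams, which were dosed over a longer window than those of the F1 embryos. In females, the vehicle group and the rising doses held 5, 2, 5 and 5 embryos in F1, 6, 3, 3 and 3 in F2, and 6, 4, 2 and 4 in F3. In males they held 5, 2, 6 and 8 embryos in F1, 6, 3, 3 and 3 in F2, and 6, 4, 4 and 3 in F3. Gonads were dissected with the mesonephros attached and dissociated, cells that took up propidium iodide were gated out, and EGFP-positive cells were kept. This last gate selects for use of the Pou5f1 promoter, and how many macrophages passed it was not measured here. Libraries were made with an oligo(dT) primer, and the deposited values are read counts normalized by the authors (TMM), here called normalized counts. In 99 embryos the whole reads behind them could be recovered. The shallowest of these libraries had 5004382 reads, the median one 7789673 and the deepest 87240533. These are reads counted in the genes of the table, and not the uniquely mapped reads that the paper gives.

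Macrophages enter the fetal gonad early and clear dying cells there. C1q, built from the chains of C1qa, C1qb and C1qc, binds to debris and immune complexes and starts the classical complement pathway. Tyrobp and Fcer1g carry ITAM motifs and pass on signals from receptors with no signalling tail of their own, Csf1r binds the growth factors that macrophages need to survive, and Cx3cr1 binds the chemokine Cx3cl1.

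Germ cell markers were detected in each embryo. All 8 of 8 germ cell genes were in the table, with a summed level of 4126 normalized counts at the median and from 2667 to 6526, and Dppa3 was the most abundant, with a mean of 2269. Tfap2c, the lowest of the 8, had a mean of 15.97 and a lowest level of 3.0. The Y-linked gene Eif2s3y was above 0 in 0 of 48 females and in 53 of 53 males. Ddx3y, also Y-linked, was above 0 in 3 females, at no more than 0.156 normalized counts, and was at least 3.45 in each male. The 10 macrophage transcripts together took 0.0017% of the reads at the median and 0.0165% at most. These are bulk samples, in which fewer cells of a type and less RNA in each cell cannot be told apart, and where the transcripts came from was not tested.

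Among the complement subunits, C1qb had a mean of 4.87 normalized counts, from 0 to 47.4, and was at 0 in 7 embryos. C1qc had a mean of 3.44, from 0 to 47.6, and was also at 0 in 7 embryos. C1qa, with a mean of 0.781 and a highest level of 5.39, was at 0 in 14 embryos. The 3 genes lie side by side on chromosome 4, within 18675 bases. Tyrobp ranged from 0 to 13.7 with a mean of 3.80, and was at 0 in 1 embryo. Fcer1g ranged from 0 to 23.6 with a mean of 4.0, and was likewise at 0 in 1 embryo. The adaptors were thus detected in nearly every embryo. Csf1r averaged 0.627 and was at 0 in 19 embryos, and its highest level was 2.38. Cx3cr1 had the lowest mean of the 10, 0.330, and was at 0 in 24 embryos. It had 3 reads or fewer in 64 embryos, and its mean lay below the minimum of 0.5 for testing, so 9 of the 10 genes were tested. Aif1, a cytoskeletal protein gene of macrophages, averaged 1.56, from 0 to 10.8. The chemokines Ccl3 and Ccl4, which draw in leukocytes, averaged 1.47 and 1.37, and were at 0 in 18 and 19 embryos. They are neighbours on chromosome 11, with 13228 bases between them. The table names genes by symbol, and positions, exon lengths and the identifiers that follow were read from the GENCODE gene annotation. There C1qb is ENSMUSG00000036905.8, C1qc ENSMUSG00000036896.5, C1qa ENSMUSG00000036887.5, Tyrobp ENSMUSG00000030579.10 and Fcer1g ENSMUSG00000058715.11. Csf1r is ENSMUSG00000024621.16, Cx3cr1 ENSMUSG00000052336.7, Aif1 ENSMUSG00000024397.14, Ccl3 ENSMUSG00000000982.5 and Ccl4 ENSMUSG00000018930.3.

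Per kilobase of exon in the GENCODE annotation, the mean level was highest for Tyrobp, at 5.69 normalized counts. Fcer1g, at 4.58, and C1qb, at 4.47, came next. Ccl4, Ccl3 and C1qc had 2.08, 1.92 and 1.78 per kilobase, and Aif1 and C1qa had 1.02 and 0.751. By the median over embryos Ccl4 had 1.07, below Ccl3 at 1.32 and C1qc at 1.22. Csf1r, at 0.109, and Cx3cr1, at 0.0734, were the lowest. For each gene the embryos ranged from 0 to several times the mean, so neighbours in this order overlapped throughout.

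The 10 transcripts moved together from embryo to embryo. On log2(normalized count + 0.5), with the mean of each sex, generation and dose group subtracted, all 45 of 45 pairs had a positive Pearson correlation over all embryos. The median r was 0.611 and the median Spearman rho was 0.590, and 31 pairs had an r over 0.5. C1qb and C1qc were the closest pair, with r = 0.90, and Cx3cr1 and Ccl4 the least close, with r = 0.28. All values of an embryo share its library and depth. Log2 reads and the mean of the 10 genes had an r of 0.0207. Without the 2 embryos farthest from the median, the median r of the pairs was 0.562. The median r was 0.640 in 48 females and 0.600 in 53 males. It was 0.658 in F1, 0.451 in F2 and 0.677 in F3, and in F2 44 of 45 pairs were above 0. In the 34 vehicle embryos it was 0.612.

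**Figure D1:**
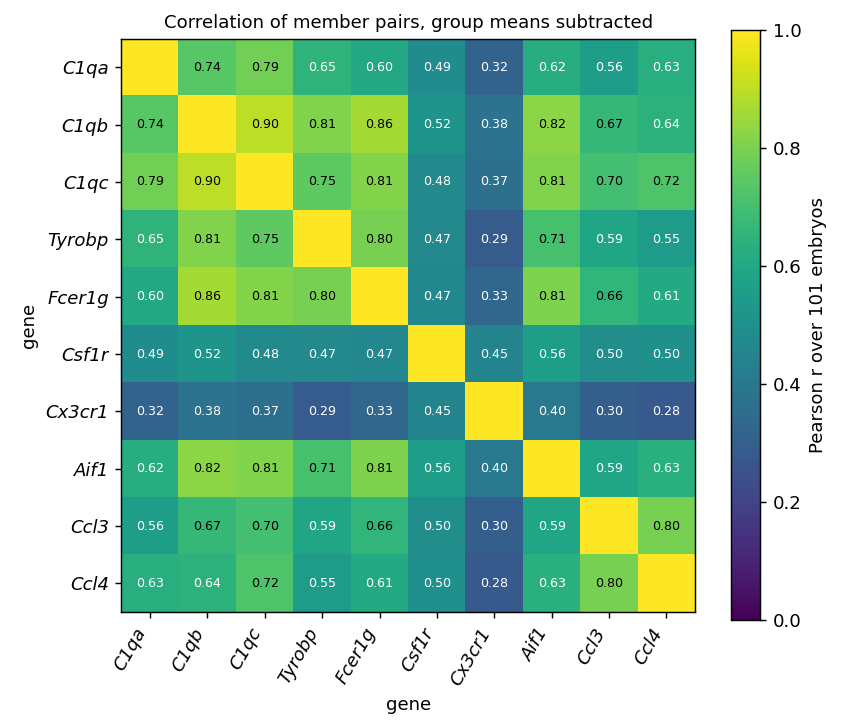
Pearson correlation of each pair of the 10 macrophage transcripts over all embryos, on log2(normalized count + 0.5) with the group means subtracted. Both axes list the genes and the colour runs from 0 to 1. All 45 pairs were above 0, and Csf1r and Cx3cr1 had the lower values.

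Of the genes outside the 10, those most like their mean were Ctss (r = 0.901), Ms4a7 (0.827), C3ar1 (0.806), Lyz2 (0.801) and Arhgdib (0.776) over the same embryos. Ctss encodes a lysosomal protease and Lyz2 the lysozyme of myeloid cells. The next 10 were Ms4a6b, Cd53, Tmsb4x, Ly86, Fcgr3, Ms4a6c, Hpgds, Cd52, Rnase4 and Lgals3, with r from 0.772 for Ms4a6b down to 0.590 for Lgals3. Over all 13279 other genes the median r was 0.0228, and the lower 2.5 percentile and its upper counterpart were -0.247 and 0.305. Only 27 of these genes, 0.203%, had an r over 0.5. The 15 genes were selected on this correlation, which is therefore a description.

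Other lists of marker genes were set beside the 10, each by the r of its mean with theirs over all embryos. The other macrophage markers had r = 0.909 (rho 0.895). Of these 24 genes 18 were in the table, their summed level was 86.3 at the median and from 48.5 to 215.2, and Lgmn, with r = 0.0374 of its own, was the most abundant. Adgre1, Cd163, Spi1, F13a1, Timd4 and Itgam, of which several are defining markers of macrophages, were not in the table used here. The pan-leukocyte list, with 9 of 9 genes in the table, had r = 0.820, a median summed level of 8.03 and Arhgdib as its most abundant gene, and Ptprc was at 0 in 46 embryos. The chemokine and cytokine list (10 of 16 genes, median sum 9.19, Nfkbiz most abundant) had r = 0.671. The ITAM adaptor pathway (11 of 14, median sum 72.4, Plcg2 most abundant) had r = 0.646. Classical complement (7 of 10, median sum 375.2, C1qbp most abundant) had r = 0.459. The CSF1R axis, with 5 of 8 genes, a median sum of 5.69 and Csf2ra most abundant, had r = -0.164. Fcgr1, Fcgr3 and Trem2 each stand in both the other macrophage list and the ITAM adaptor pathway.

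The lists of other cell types and of the dissociation response followed. The Sertoli list (8 of 8 genes, median sum 84.4, Cst9 most abundant) had r = 0.391 and the dissociation response (14 of 14, median sum 135.9, Dusp1) had r = 0.345. For pregranulosa genes (4 of 5, median sum 1.83, Wnt4) r was 0.278, and Foxl2 was not in the table used here. Mast cell genes (4 of 6, median sum 14.0, Gata2) had r = 0.219, and fetal Leydig genes (5 of 5, median sum 3.92, Hsd3b1) had r = 0.147. Of the other blood cells, monocyte genes (2 of 4, median sum 0.561, Plac8) had r = 0.111, neutrophil genes (1 of 6, median sum 1.87, Prtn3) 0.0268, and lymphoid genes (3 of 6, median sum 3.88, Cd79a) -0.0354. Erythroid genes (6 of 10, median sum 1.70, Hba-a2) had r = -0.0385, and their sum reached 4772 in 1 embryo. Endothelial genes (9 of 10, median sum 48.6, Pecam1) had r = 0.00433, stroma (9 of 9, median sum 2.26, Dcn) -0.173, and the germ cell list 0.0201. The sex check genes (4 of 4, median sum 136.4, Eif2s3y) had r = 0.0866. The part of any of these cells in the levels of the 10 transcripts was not tested.

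The summed level of the 10 genes was 16.4 normalized counts at the median, from 0.10 to 167.7. The 5 highest embryos were the F1 female C4242.1 at 0.2 mg/kg-day, with 167.7, the F1 male D2595.1 at 0.033, with 102.6, the F3 females D2374.5 and D3744.1 at 0.033, with 68.2 and 66.7, and the F1 female D2582.1 at 2, with 59.0. The 5 lowest were the F3 vehicle female D1388.3, with 0.10, the F2 male D3371.2 at 0.2, with 0.757, the F3 vehicle males D3523.1 and D1388.1, with 0.983 and 1.02, and the F2 male D3136.1 at 0.033, with 1.36. High and low embryos thus came from several groups, and both vehicle and exposed embryos were among the lowest. C4242.1 had 64111700 reads, and 11 F1 libraries had over 20000000. In these 11 the summed level was 9.02 at the median, and in the other 27 F1 libraries 22. D2595.1 had the highest sum of Sertoli genes, 2322, and the vehicle male D1388.1 the highest sums of erythroid and stroma genes, 4772 and 86.5.

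Littermates were alike to a degree that differed by gene. In 42 litters with a brother and a sister, with the mean of each sex and generation subtracted, the mean of the 10 genes had an r of 0.590 between brother and sister (rho 0.544). The median over the 10 genes was 0.449. Over 13279 other genes, which share the same litters and libraries, the median was 0.249, and the lower 2.5 percentile and its upper counterpart were -0.189 and 0.630. Tyrobp had r = 0.751 and C1qb r = 0.659, both above the upper percentile. Aif1, Fcer1g and C1qc had 0.538, 0.506 and 0.504, and C1qa and Csf1r had 0.394 and 0.367. Ccl3, Ccl4 and Cx3cr1 had 0.284, 0.104 and 0.0149, so Ccl3 lay slightly above the median of the other genes, and Ccl4 and Cx3cr1 below it. Without the 2 litters farthest from the median, r was 0.607 for Tyrobp and 0.541 for C1qb, both below the upper percentile over all litters, and 0.492 for the mean of the 10. Over all 42 litters, with the mean of each dose also subtracted, r was 0.550 for the mean of the 10, 0.775 for Tyrobp and 0.538 for C1qb, where the upper percentile was 0.645. Without the dose means subtracted, r for the mean of the 10 was 0.332 in 14 F1 litters, 0.657 in 15 F2 litters and 0.697 in 13 F3 litters. By their summed level, brother and sister both lay above the median of their sex in 13 litters and both at or below it in 12, and they were split in 17. The sister was higher in 26 litters and the brother in 16. The fold between brother and sister was 1.96 at the median. The F1 brothers D1190.1 and D1190.2 stood at 51.4 and 1.66.

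**Figure D2:**
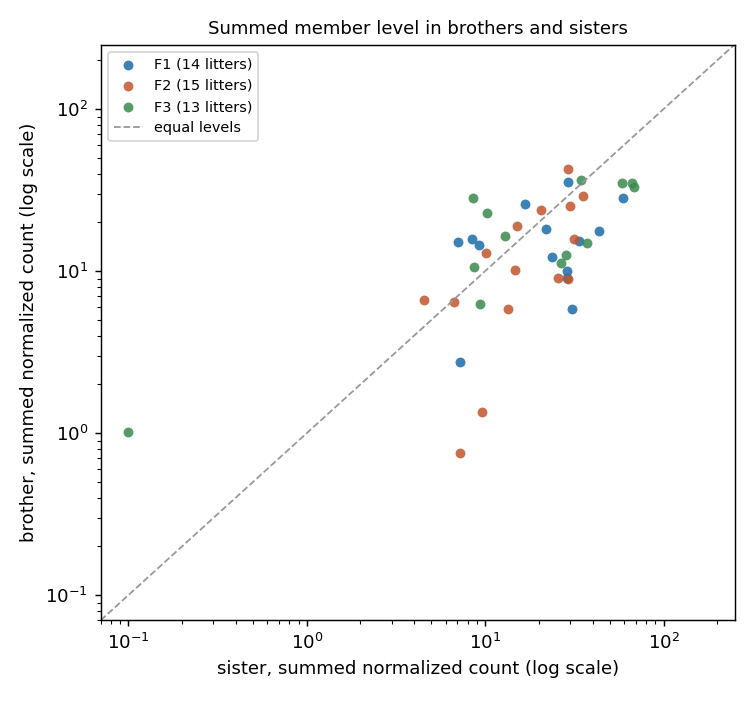
Summed normalized count of the 10 macrophage transcripts in the sister (horizontal axis) and brother (vertical axis) of 42 litters, both on log scales. Colours mark F1, F2 and F3, and the dashed line marks equal levels. Points lie on both sides of the line, and D1388 is at the lower left, at 0.10 and 1.02.

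Whether the sexes differ was asked first in the vehicle embryos. The summed level in the 17 females was 0.10, 23.7 and 35.4 at its lowest, median and highest, and in the 17 males 0.983, 15.8 and 42.8. The ranges of the sexes overlapped almost fully. With limma over all generations, 0 of the 9 tested genes were called at an adjusted p of 0.05, and 0 had an unadjusted p under 0.05, whereas 56.5% of the 13288 genes tested were called. Both edgeR tests called 0 of the 9. Differences of males from females ran from -0.47 (Ccl4) to 0.21 (Csf1r) on the log2 scale. Within single generations 0 of 27 tests were called by limma, with 0 at an unadjusted p under 0.05 and 0 by either edgeR test, beside 32.3% of all genes. In F1 all 9 differences of males from females were negative, from -1.07 (C1qb) to -0.02 (Csf1r), in F2 7 of 9 were negative, and in F3 4 of 9, from -0.44 (Tyrobp) to 0.46 (Csf1r). The counts for other lists that follow are limma calls over all generations, where 56.5% of all genes were called. Among the other macrophage genes, 3 of 12 tested were lower in males and 1 higher, Stab1 by -0.89, Ctsc by -0.67, Fcgr3 by -1.01 and Lgmn by 1.16 on the log2 scale. All 8 of 8 Sertoli genes were higher in males. Of the ITAM adaptor pathway, 4 of 5 tested were lower in males and 1 higher, Lyn by the most, at -1.78. Of the chemokine list 2 of 3 were higher in males.

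Vehicle embryos were also compared between generations. The summed level in the 12 F2 vehicle embryos was 8.88 at the lowest, 27.1 at the median and 42.8 at the highest. In the 12 F3 vehicle embryos these values were 0.10, 10.4 and 36.3, and in the 10 of F1 2.60, 17.0 and 33.6. F3 thus held the lowest embryos, but the ranges overlapped. Between F3 and F2, all 9 tested genes had a negative log2 difference, from -1.41 (C1qb) to -0.43 (C1qa), with adjusted p = 0.985 each (limma). Over the 3 comparisons between generations 0 of 27 tests were called by limma, with 9 at an unadjusted p under 0.05, 33.3%, beside 4.82% of all gene tests, and 0 by either edgeR test. The share of all genes called was 0.0%. Whether the sex difference itself differed between generations was tested too, and 0 of 27 tests were called by limma, with 0 at an unadjusted p under 0.05 and 0 by either edgeR test, beside 0.0% of all genes.

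**Figure D3:**
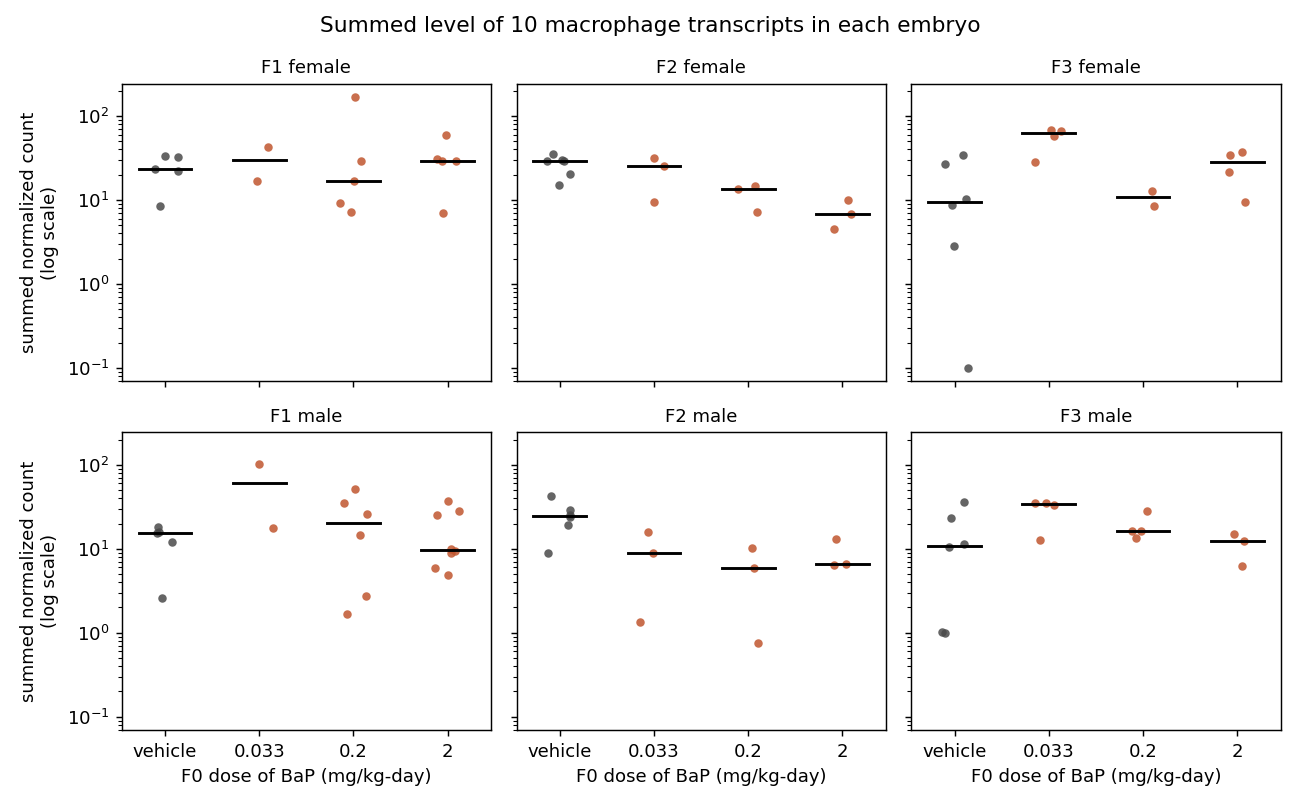
Summed normalized count of the 10 macrophage transcripts (vertical axis, log scale) by F0 dose of BaP, in panels for each sex and generation. Each point is an embryo and the line is the group median. In F2 females the medians were 29.2, 25.7, 13.4 and 6.73 from vehicle to 2 mg/kg-day, and in F3 females the 0.033 group was at 62.6 beside 9.48 for vehicle.

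The doses were then compared with vehicle in each sex and generation, 18 comparisons in all. In females the median summed level, from vehicle to 2 mg/kg-day, was 23.7, 29.99, 16.8 and 28.9 in F1, 29.2, 25.7, 13.4 and 6.73 in F2, and 9.48, 62.6, 10.8 and 28.01 in F3. In males it was 15.3, 60.1, 20.2 and 9.72 in F1, 24.6, 9.02, 5.86 and 6.62 in F2, and 10.9, 33.9, 16.4 and 12.3 in F3. Within each sex and generation, the doses share the vehicle embryos, so the comparisons are not independent. The medians of exposed F2 groups lay below those of their vehicle groups, and those of F3 groups at 0.033 above, with ranges that overlapped in several groups. The vehicle medians were themselves higher in F2, at 29.2 in females and 24.6 in males, than in F3, at 9.48 and 10.9. With limma 1 of 162 tests was called, for Ccl4 in F2 males at 0.2, beside 0.00836% of all gene tests. At an unadjusted p under 0.05 were 47 of the 162 tests, 29%, beside 5.1% of all gene tests, and since the 10 genes move together in each embryo these are not separate results. The edgeR quasi-likelihood test called 0 and the likelihood ratio test 3, which were Ccl4, Fcer1g and Tyrobp in F2 males at 0.2, beside 65 of all 13083 genes in that comparison, so that both edgeR tests called 0 of the 9 in each other comparison.

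In F2 males at 0.2 mg/kg-day, Ccl4 was lower than in F2 vehicle males. It had 0 reads in all 3 exposed embryos, D1040.1, D1064.1 and D3371.2. In the 6 vehicle males it stood at 0.468 normalized counts at the lowest, 1.14 at the median and 2.81 at the highest, from 3 to 29 reads. The groups did not overlap, though the lowest vehicle embryo was itself at 3 reads. Against a floor of 3 reads in each exposed library, the mean in vehicle males of 1.36 ± 0.808 (SD, n = 6) makes the level at least 3.51-fold lower, for counting error only. The log2 difference was -1.79, with a 95% interval from -2.56 to -1.02 and an adjusted p of 0.0384 (limma), and as every exposed embryo was at 0 it depends on the pseudocount of 0.5. Of all genes 19 were called, 0.145%, and 1253 of 13083 were at an unadjusted p under 0.05, beside 8 of the 9. The limma call was lost with a pseudocount of 1 (adjusted p = 0.0629), with no minimum level (0.0592), with the fit of the 2 groups alone (0.380) and with the quasi-likelihood test (0.0883), and over its alternatives the adjusted p ran from 0.000531 to 0.474. It was also lost when D1064.1 (0.107), D3371.2 (0.474), C4992.2 (0.0702), D2996.2 (0.0697), D3001.1 (0.103) or D3133.5 (0.0501) was left out.

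The other 8 tested genes had negative differences in the same comparison and did not pass the test. Fcer1g stood at 0.126, 0.881 and 1.09 in the exposed males, and at 1.87, 4.33 and 7.58 at the lowest, median and highest in vehicle males. Its log2 difference was -1.99 with an adjusted p of 0.0593. Tyrobp stood at 0.504, 1.09 and 2.39 in the exposed males, and at 2.48, 4.28 and 7.46 in vehicle males, a difference of -1.47 with an adjusted p of 0.0670. Together with Ccl4 these made 3 of 9 genes in which every exposed embryo lay below every vehicle embryo, beside 1.54% of all genes. For C1qc, at 0, 0.136 and 1.76 in exposed males, the groups overlapped, and the difference was -2.0 with an adjusted p of 0.0958. Without D1040.1, the highest of the exposed males, 5 genes were called in place of 1, namely Ccl4, C1qb, C1qc, Fcer1g and Tyrobp, and 243 of all genes, 1.86%, in place of 19. Without the vehicle male C4988.2, 3 of the 9 were called, beside 133 of all genes, 1.02%. Without the vehicle male D2991.3, 3 of the 9 were called too, beside 24 of all genes, 0.183%. The other macrophage list had a median difference of -0.96 over 11 tested genes and the pan-leukocyte list -1.01 over 5. The summed Sertoli genes stood at 39.1, 462.5 and 491.3 in the exposed males and at 484.7, 943.9 and 1127 at the lowest, median and highest in vehicle males, with a median difference of -1.79 over 8 genes, and 0 of these were called by limma. The germ cell list had a median of 0.34. The part of Sertoli cells in the result was not tested.

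In the other F2 males the same sign was seen without a call. At 0.033 mg/kg-day all 9 differences were negative, from -1.43 (C1qc) to -0.73 (C1qa), and Aif1 and Ccl4 lay below every vehicle male, 2 of 9 genes beside 0.359% of all genes. At 2 mg/kg-day they ran from -1.62 (C1qb) to -0.47 (C1qa), and Tyrobp alone lay below every vehicle male, 1 of 9 beside 0.581%. By limma 0 of 9 were called at each dose, with 8 and 5 at an unadjusted p under 0.05, beside 206 and 486 of all 13083 genes tested.

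F2 females, which are sisters of these males, were next. At 2 mg/kg-day C1qb stood at 0.846, 1.02 and 2.28 in the exposed embryos, and at 2.75, 6.55 and 10.3 at the lowest, median and highest in vehicle females. C1qc stood at 0.169, 0.254 and 1.44, and in vehicle females at 2.16, 3.55 and 5.45. Ccl4 stood at 0, 0.127 and 0.240, and in vehicle females at 0.601, 1.66 and 2.88. Together with Fcer1g and Aif1 these were 5 of 9 genes in which every exposed embryo lay below every vehicle female, beside 1.43% of all genes. The log2 differences were all negative, from -2.02 (C1qc) to -0.66 (Tyrobp), and each had an adjusted p of 0.810 (limma). With limma 0 of 9 were called, 7 were at an unadjusted p under 0.05, beside 603 of all 13083 genes tested, and the summed level of 4.57, 6.73 and 10.1 lay below the lowest vehicle female, at 15.04. The median difference over 11 other macrophage genes was -0.62, and 0 of these were called by limma. At 0.2 mg/kg-day all 9 differences were negative too, from -1.51 (C1qb) to -0.0059 (Ccl4). C1qc and Aif1 lay below every vehicle female, 2 of 9 genes beside 0.848% of all genes. With limma 0 were called and 4 were at an unadjusted p under 0.05, beside 317 of all genes. The summed level, from 7.27 to 14.7, also lay below the lowest vehicle female. At 0.033, differences ran from -0.57 (C1qa) to 0.30 (Csf1r), with 0 called by limma and 0 at an unadjusted p under 0.05, beside 444 of all genes. The F2 embryos came in pairs of a brother and a sister from 15 dams, so each dose rests on 3 litters. The labels of F2 and F3 embryos do not name the F0 dam, so litters of a dose may share an F0 ancestor.

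F3 females at 0.033 mg/kg-day lay on the other side. C1qb stood at 6.04, 14.7, 15.1 and 16.5 in the 4 exposed females, and at 0, 2.04 and 8.43 at the lowest, median and highest in the 6 vehicle females. Fcer1g stood at 6.53, 8.69, 9.37 and 17.3, against 0, 1.97 and 4.05. Aif1 stood at 2.34, 3.31, 5.25 and 6.15, against 0, 0.688 and 1.66. Fcer1g and Aif1 lay above every vehicle female, 2 of 9 tested genes beside 0.51% of all genes, as did the untested Cx3cr1, whereas C1qb overlapped. The log2 differences were 2.55 for C1qb, 2.53 for Fcer1g and 2.07 for Aif1, and those of all 9 were positive. With limma 0 of 9 were called, 8 were at an unadjusted p under 0.05, beside 527 of all 13139 genes tested, and the lowest adjusted p was 0.315. The median difference was 1.23 over 12 other macrophage genes and 0.66 over 5 pan-leukocyte genes. Stroma genes summed to 69.98 in D3744.1 and to 32.05 in the vehicle female D1388.3, and their part was not tested. The 6 vehicle females included D1388.3 and D3526.1, at a summed level of 0.10 and 2.82.

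Their brothers at 0.033 mg/kg-day had a summed level of 12.6, 33.1, 34.7 and 35.1, and the F3 vehicle males 0.983, 10.9 and 36.3 at the lowest, median and highest, so the groups overlapped. All 9 differences were positive, from 0.42 (Ccl3) to 1.74 (C1qb), with an adjusted p of 0.970 each (limma). At an unadjusted p under 0.05 were 3 of the 9, Aif1, C1qb and Tyrobp, beside 402 of all 13139 genes tested. Without D3744.4 the difference of Ccl3 was -0.07. At the other F3 doses 0 of 9 were called by limma. Of these, F3 females at 2 mg/kg-day had 3 at an unadjusted p under 0.05, beside 2018 of all 13139 genes tested, and the other doses had 0. At that p were 1677 of all genes in females at 0.2 mg/kg-day, and 1392 and 116 in males at 0.2 and 2.

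In F1 the 2 males at 0.033 mg/kg-day had summed levels of 17.7 and 102.6, and the 5 vehicle males 2.60, 12.2, 15.3, 15.8 and 18.1. The lower of the exposed pair lay within the vehicle range. All 9 differences were positive, with 1 at an unadjusted p under 0.05, Aif1, beside 864 of all 13635 genes tested, and 0 were called by limma. Fcer1g and Aif1 lay above every vehicle male, 2 of 9 genes beside 4.41% of all genes, as did the untested Cx3cr1. The exposed male D2595.1 also had the highest sum of Sertoli genes of all embryos, 2322.5, and their part was not tested. Without D2595.1 the differences of C1qa (-0.85), C1qc (-0.40) and Ccl4 (-0.49) were negative, and a group of 1 embryo was then assumed to vary like the others. In the other F1 comparisons 0 of 9 were called by limma at each dose, with 0 at an unadjusted p under 0.05. Of all 13635 genes, 25, 123 and 1349 were at that p in females from the lowest to the highest dose. In males at 0.2 and 2 mg/kg-day 159 and 238 were. Among these comparisons limma called 1 of all genes, in females at 2 mg/kg-day.

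Over all generations together, 72 tests compared a dose, or the mean of the doses, with vehicle in each sex. Of these 0 were called by limma, beside 0.17% of all gene tests, and 0 by either edgeR test. At an unadjusted p under 0.05 were 4 of the 72, 5.56%, beside 6.03% of all gene tests. All 4 were in females at 0.033 mg/kg-day, where 277 of all 13288 genes tested were at that p and the differences of the 9 were positive, from 0.46 (C1qa) to 0.96 (Fcer1g). In females at 2 mg/kg-day, 3098 of all 13288 genes were at that p, and 0 of the 9. The difference between the sexes in the response was called in 0 of 81 tests by limma, beside 0.0% of all gene tests, in 0 by the quasi-likelihood test and in 1 by the likelihood ratio test. At an unadjusted p under 0.05 were 7 of the 81, 8.64%, beside 3.07% of all gene tests. For Ccl4 in F2 at 0.2 mg/kg-day that difference was -1.79 on the log2 scale with an adjusted p of 0.851 by limma, and it was the 1 call of the likelihood ratio test (adjusted p = 0.0411). By limma its response in males was thus not shown to differ from that in females.

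Promoters were read for the genes that move together, since C1qb and C1qc were the closest pair. RefSeq promoters of 300 bases in GRCm38.p6 were matched for 6 of the 10 genes, Fcer1g, C1qb, C1qc, Cx3cr1, Ccl3 and Aif1, and for the others none was used here. They were searched on both strands for the PU-box GAGGAA, AP-1 TGANTCA, C/EBP TTGCNNAA and kappaB GGGANTTTC. The PU-box letters were in 4 of the 6, C1qb, C1qc, Ccl3 and Aif1, with 1 match each, and the other 3 motifs in 0 of the 6. Of all 32851 promoters 28.3% hold the PU-box letters, 7.81% AP-1, 10.8% C/EBP and 1.11% kappaB. A match describes the letters only. The promoters of C1qb (chr4:136886151-136886450, minus strand) and C1qc (chr4:136892865-136893164, minus strand) are shown 5′ to 3′, with the PU-box match, on either strand, in capitals.
C1qb: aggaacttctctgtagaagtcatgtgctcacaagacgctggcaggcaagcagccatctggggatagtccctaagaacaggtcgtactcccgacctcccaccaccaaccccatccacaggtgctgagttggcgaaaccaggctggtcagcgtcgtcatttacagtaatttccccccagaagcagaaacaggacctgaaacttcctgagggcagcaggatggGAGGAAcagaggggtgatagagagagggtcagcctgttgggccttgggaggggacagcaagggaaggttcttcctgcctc
C1qc: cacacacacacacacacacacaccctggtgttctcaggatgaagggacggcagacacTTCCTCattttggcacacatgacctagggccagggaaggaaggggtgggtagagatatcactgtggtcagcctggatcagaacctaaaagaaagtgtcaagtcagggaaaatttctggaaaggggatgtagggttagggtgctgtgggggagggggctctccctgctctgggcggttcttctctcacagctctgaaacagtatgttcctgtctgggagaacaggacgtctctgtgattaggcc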

How the data were processed

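RNA from sorted germ cells of single E13.5 embryos was sequenced as paired reads on a NextSeq. The signal values deposited by the authors are normalized counts: reads were trimmed with Trim Galore, aligned with STAR to mm10, counted over exons with Rsubread and scaled with edgeR (TMM). Versions of these tools are not given in the sources used here. The planned design allowed for raw counts; as the values are normalized signal, limma was used on log2(value + 0.5), with a mean-variance trend and genes with a mean of at least 0.5. Differences are on that scale, which understates those of low genes. Calls use Benjamini-Hochberg adjustment over all genes tested, at 0.05. Single generations, all generations and vehicle embryos were fitted as sex-by-dose or sex-by-generation groups. The members and lists were chosen with earlier results of these data known.

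The smallest step between values of an embryo gave whole reads, within 0.05 of a whole number for 100% of values, in 99 embryos. The other 2, an F3 male at 2 mg/kg-day (D4190.1) and the F3 vehicle female D1388.3, have no recovered reads and were left out of edgeR, which was run on the recovered reads with its quasi-likelihood and likelihood ratio tests. In F2 males at 0.2 mg/kg-day these called 3 and 65 of all genes, and limma 19. Reads of 184 pairs within groups were compared by chi-square, which divided by its degrees of freedom was at least 5.44, so each library was counted as its own sample.

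The dams named in the labels pair littermates. With the dam as a block, the correlation within litters was 0.382 in F1, 0.0532 in F2, 0.225 in F3, 0.262 over all generations and 0.195 in vehicle embryos. Alternatives were pseudocounts of 0.1 and 1, no minimum and a minimum of 5, upper quartile scaling, the 2 compared groups alone, generation as a term, F1 without deep libraries, the dam block, both edgeR tests, and each embryo left out. Chosen after seeing the data were the pair correlation without deep libraries and the litter correlation without litter D1388.

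Genes named are the 10 members, genes of the other lists that were called, most abundant, shared between lists or not in the table, and the 15 genes most like the members' mean. Ptprc was chosen after the values were seen. Python 3.11.15, numpy 2.4.6, pandas 2.3.3, scipy 1.17.1, matplotlib 3.10.9, R 4.3.3, limma 3.58.1 and edgeR 4.0.16 were used, after tests on simulated data. The floor of 3 reads covers counting error only, and the interval from limma rests on the spread between embryos. Values of 1 other list were left out and are not reported here.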

Additional observations from a re-analysis of the deposited data

Results flagged for a closer look

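In groups of 4 to 10 embryos, 19 of 154 sets of values had a highest or lowest embryo far from the rest of its group. Chance flags about 1 in 20 groups, and the 10 transcripts move together, so several of these are the same embryo. No cause was tested.

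In F1, Csf1r stood at 0.804 normalized counts in the vehicle female C4605.2, and the next embryo at 0.382. Ccl4 stood at 8.81 in the female C4242.1 at 0.2 mg/kg-day, and next at 0.705. Among females at 2 mg/kg-day, C1qc was lowest at 0.720 in C4219.4, next to 4.55, and Cx3cr1 highest at 1.43 in D2582.1, next to 0.432. In the vehicle male C3774.3, C1qb was at 0, next to 2.26, and the summed level was 2.60, next to 12.2.

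In the F2 vehicle male D2991.3, C1qc was at 0.468, next to 3.12, and Ccl3 at 0, next to 1.36.

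In F3, Tyrobp was at 0.10 in the vehicle female D1388.3, next to 2.26. In the female D2549.1 at 0.033 mg/kg-day C1qb was at 6.04, next to 14.7, and Tyrobp at 4.93, next to 9.74. The brother D2549.3 was the lowest male of that dose for C1qb at 4.24, C1qc at 0.785, Fcer1g at 2.04 and the summed level at 12.6, where the nearest values were 7.88, 4.98, 6.0 and 33.1. At 2 mg/kg-day the female D4190.2 was lowest for Tyrobp, at 1.6 next to 5.76, and Aif1, at 0.801 next to 2.34, and D2204.1 was highest for Ccl4, at 4.05 next to 2.24. C1qc was at 0.841 in the male D1390.1 at 0.2 mg/kg-day, next to 3.02.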

How the results depend on the processing

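The count of members called over the 18 comparisons of a dose with vehicle, 1, was 0 with a pseudocount of 1, no minimum, a minimum mean of 5, the 2 compared groups alone or edgeR's quasi-likelihood test, and 3 with its likelihood ratio test. A minimum mean of 5 leaves at most 1 member to test. Left-out embryos gave 0 to 5, with 5 without D1040.1 and 3 without C4988.2 or D2991.3, where 243, 133 and 24 of all genes were called in F2 males at 0.2 mg/kg-day, and without the other embryos of that comparison 0 or 24. The difference between the sexes in the response had 1 call by the likelihood ratio test in place of 0, for Ccl4 in F2 at 0.2 mg/kg-day. Counts in the other comparisons were 0 under every alternative run.

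For Ccl4 in F2 males at 0.2 mg/kg-day, the log2 difference was -1.18 with a pseudocount of 1, -1.79 with no minimum and with the 2 groups alone, and -6.51 with the quasi-likelihood test, without a call in each. It ran from -1.96 to -1.60 with embryos left out, with calls in 3 of 9 fits. It was called with a pseudocount of 0.1, upper quartile scaling, the dam as a block (-1.79, adjusted p = 0.0376, limma) and the likelihood ratio test. Fcer1g and Tyrobp passed the likelihood ratio test there, at -2.58 and -1.68. The block of littermates changed no call. Genes called in that comparison numbered 19 as reported, 10 with no minimum, 12 with a minimum of 5, 0 with the 2 groups alone, 3 by the quasi-likelihood test and 65 by the likelihood ratio test.

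With embryos left out, the sign turned for Ccl3 in F3 males at 0.033 mg/kg-day, from -0.068 to 0.84, and in F1 males at 0.033 for C1qa, from -0.85 to 1.90, C1qc, from -0.40 to 3.06, and Ccl4, from -0.49 to 3.51. In the latter a group of 1 embryo remained and was assumed to vary like the others. The causes of the changes in this section were not tested, beyond the fewer genes or embryos in some fits. Upper quartile scaling moved the median of all genes by -0.16 to 0.12 over 45 comparisons. At these depths Csf1r, C1qa and Cx3cr1 had a median of 4 reads or fewer, so differences in them were hard to detect.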
